A study of Rattus norvegicus with 4 samples.

Results

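Genes of the nuclear pore and of transport through it were described in the rat alveolar macrophage line NR8383, which was set up by washing out the lung of a normal rat. The members were taken by name: gene symbols made of Nup, Kpna, Kpnb, Xpo or Ipo and a number, with Tpr, Ndc1, Seh1l, Aaas, Rae1, Nxf1, Ran and Rangap1. Of 71 rat symbols that fit these names, 42 had a probe on the array, out of 16581 named genes in all. The other 29 were 18 pseudogenes and 11 protein-coding genes, namely Ipo5, Ipo8, Ipo11, Kpna2l1, Kpna7, Nup133, Nup160l1, Nup188, Nup62cl, Seh1l and Xpo4, which were not analysed here. All 4 cultures had received titanium dioxide particles of the NM105 type, the P25 mixture of anatase and rutile, at 3 cm2 of particle surface per cm2 of culture for 4 h. The cells had been through 20 passages, were seeded 48 h before, and grew in 15% serum as partly floating and partly adherent cells. The untreated cultures of the study were not analysed here, so the values cannot show a response to the particles. They tell which of these genes gave signal in the exposed macrophages and how far the 4 cultures (replicates 1 to 4, each on 1 array) differed.

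The nuclear pore is a channel through the nuclear envelope built from proteins called nucleoporins. A scaffold of Y-shaped complexes and an inner ring holds the pore open, membrane nucleoporins anchor it, and nucleoporins with phenylalanine-glycine (FG) repeats fill the channel. Filaments on the cytoplasmic side and a basket on the nuclear side receive cargo. Importins and exportins carry proteins and some RNAs through the channel, and the small GTPase Ran sets the direction by its bound nucleotide, while bulk mRNA leaves through a separate receptor that contains the Nxf1 product. In macrophages, transcription factors of inflammation such as NF-κB enter the nucleus by this route.

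Signal was background-subtracted intensity, and a level is log2 signal relative to the 75th percentile of the probes detected on all 4 arrays of that array. A level places the same gene on different arrays. Levels of different genes cannot be compared, since each probe has its own brightness. A gene was called detected on an array when Agilent's software marked a probe of it as well above background. The replicate 1 array was the brightest, with that percentile at 1431 intensity units, and the others lay at 585, 767 and 831 on replicates 2 to 4. The number of detected probes followed, at 14407, 10809, 12038 and 11911 of 45598. Of 12 general macrophage markers measured, 11 were detected on all 4 arrays, Cd68, Lyz2 and Tyrobp among them, and Adgre1 on none. Of 6 markers of the alveolar kind, Fabp4, Fabp5, Pparg and Siglec1 were detected on all 4 arrays, and Marco and Car4 on none. No array detected any of 8 epithelial markers, Epcam, Cdh1 and Sftpc included, and of 6 fibroblast markers 1, Col1a1, was detected on 1 array. Of 5 T cell and 3 neutrophil markers none was detected on all 4 arrays, and Lck and S100a8 were each detected on 2. The 2 B cell markers measured were not detected. Of 5 endothelial markers Cdh5 and Pecam1 were detected on all 4 arrays and Kdr, Tek and Cldn5 on none.

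Most of the pore and its receptors gave signal. Of the 42 measured members, 29 gave signal well above background on every array, 7 on 1 or 3 arrays and 6 on no array. Over all named genes, 35.2% were detected on all 4 arrays. The replicate 1 array detected 35 members, replicate 2 detected 30, and replicates 3 and 4 detected 33 each. Ndc1, Nup58, Nup153 and Nup160 were detected on replicates 1, 3 and 4 and missed on replicate 2, the dimmest array. Nup54 and Kpna3 were detected on replicate 1 only, and Nup107 on replicate 2 only. Ipo9, Kpna1, Kpna4, Kpna5, Nup50 and Nup210l were not detected on any array, and may still be expressed. The plot of levels by role shows these values for all 42 members.

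**Figure D1:**
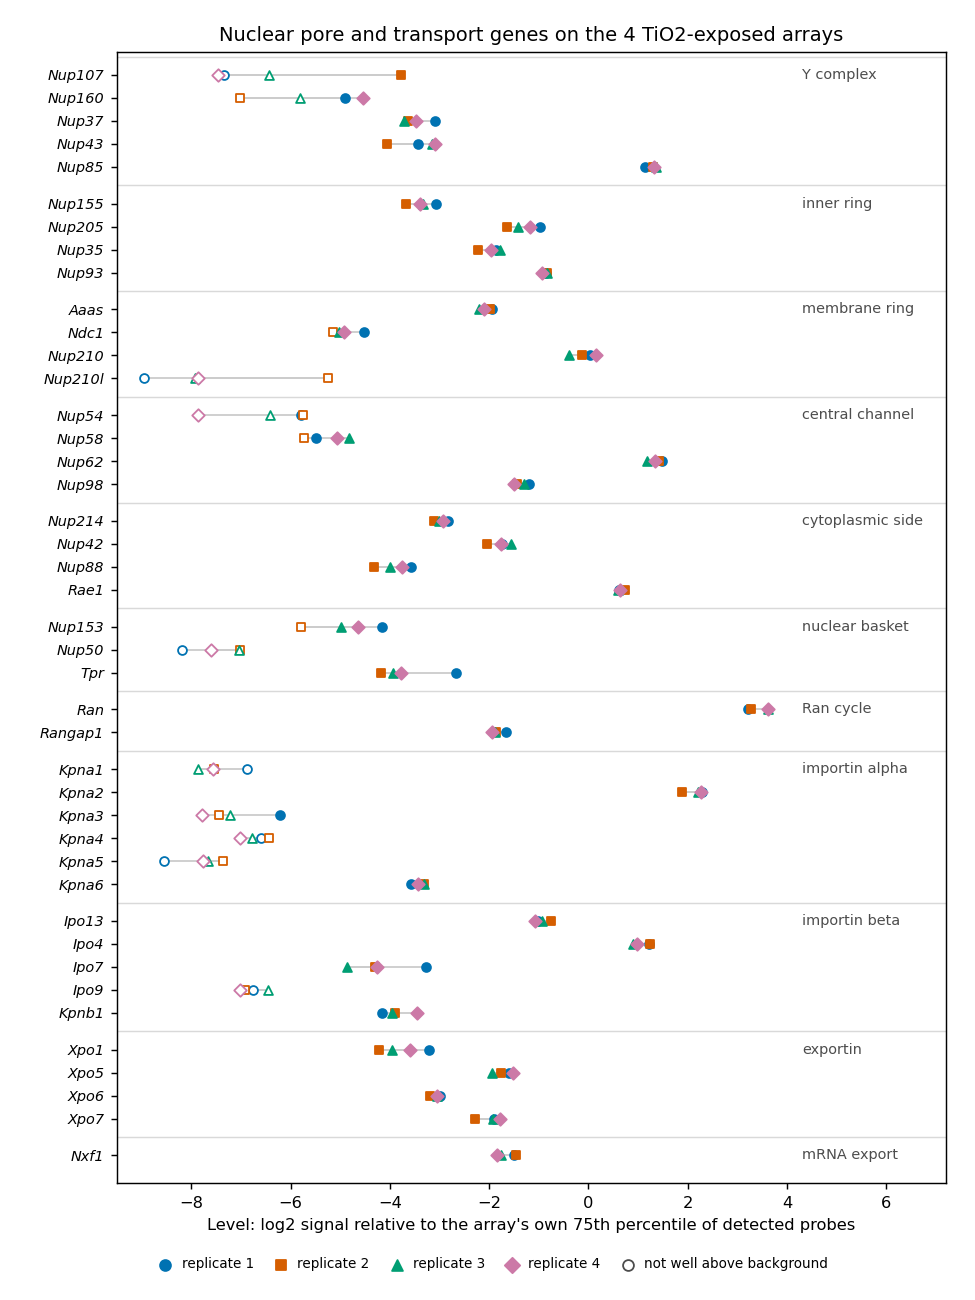
Level of each of the 42 measured nuclear pore and transport genes (log2, scaled to the 75th percentile of detected probes on that array) on the arrays of 4 exposed cultures, with the probe of highest mean shown for each gene. Filled symbols are probes well above background and open symbols are not; Tpr, Ipo7 and Xpo1 have replicate 1 farthest to the right, and Nup93, Rae1 and Xpo6 have 4 nearly coincident symbols. Positions of different genes on the axis are not comparable.

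The spread over arrays was small for most members. For the 29 members with signal on every array, the SD of the level had a median of 0.19 (log2), with 25th and 75th percentiles of 0.13 and 0.27, and over all 5830 detected named genes it was 0.23, with 0.16 and 0.32. An SD above 0.5 was found for 2 members, Tpr and Ipo7, of 29, against 5.69% of all detected genes. Such SDs hold differences of culture, RNA extraction, labelling and hybridisation together, and a change in the share of cells with a transcript cannot be told apart from a change per cell. The spread was larger where signal was dim. For the 10 members with a mean level below −3 the median SD was 0.31, and it was 0.17 for the other 19; over all detected genes these medians were 0.29 and 0.20.

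**Figure D2:**
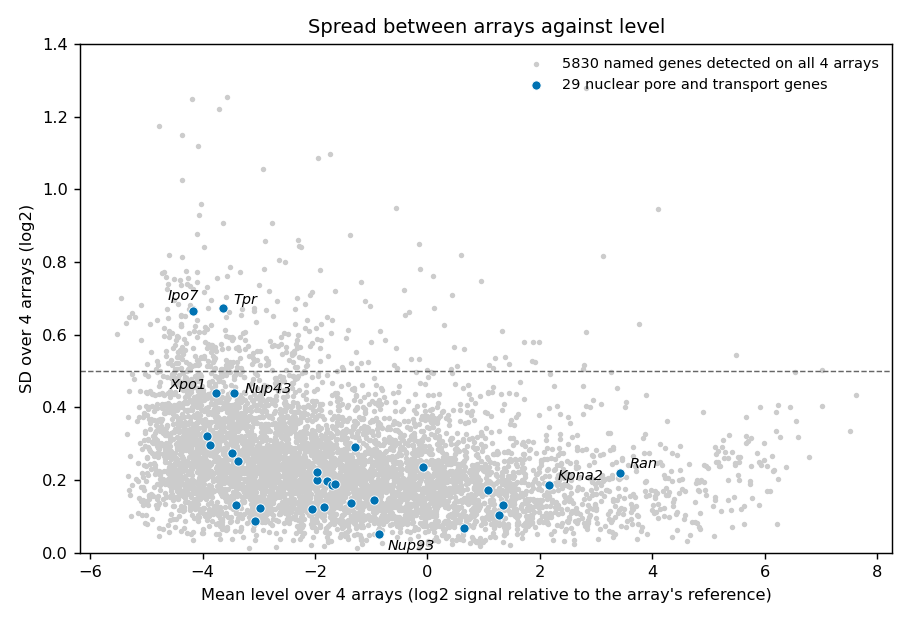
SD over the 4 arrays (log2) against mean level (log2 signal relative to the array's reference) for 5830 detected named genes in grey and the 29 detected nuclear pore and transport genes in blue. The dashed line marks an SD of 0.5, with Tpr and Ipo7 above it and Nup93 near the bottom of the plot at 0.05.

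The nuclear basket had 3 measured members, and each had a different pattern of detection. Tpr encodes the long coiled-coil protein that forms the filaments of the basket. Its 2 spots averaged −2.66, −4.19, −3.94 and −3.77 on replicates 1 to 4. Replicate 1 was high, and the other 3 lay within 0.42 of each other. The intensities behind these levels were 226, 32.1, 50.1 and 61.0 units, where the 99th percentile of the negative control spots was 5.62, 5.48, 5.07 and 5.96. The 2 spots lay at −2.68 and −2.64 on replicate 1 and at −4.35 and −4.02 on replicate 2, so spots of different arrays did not overlap there. Tpr was at −3.64 ± 0.67 (SD, n = 4), and replicate 1 was 2.88-fold above replicate 2 (limma moderated F between arrays, adjusted p = 3.30e-05). That SD was known when the members were chosen, so it is a description, and the test measures arrays by the scatter of 2 spots of the same probe. Of the 983 detected genes with a mean level from −4 to −3, 13 had a higher SD than Tpr. The SD of Tpr was 0.21 without replicate 1, when the arrays differed 1.34-fold at most, and 0.27 after normexp background correction with an offset of 50, when replicate 1 was still the highest and 1.48-fold above the lowest array. Nup153, whose product links the basket to the pore's nuclear ring, was at −4.15, −5.80, −4.99 and −4.64 on replicates 1 to 4, with replicate 2 not well above background, at 1.91 times that percentile. Its arrays stood in the same order as those of Tpr, from replicate 1 through 4 and 3 down to 2. That was also the order of array brightness, and Ndc1, Nup88, Nup205, Xpo1, Kpna2 and the brighter Nup214 probe shared it. After normexp correction the highest array of Nup153 was replicate 2 and the fold between arrays 1.05. Nup50, which helps importin cargo come free at the basket, was not detected on any array.

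The scaffold members taken by name gave signal in part. Of the Y complex, the outer scaffold unit, 5 members were measured, 3 of them detected on all 4 arrays. Nup85 was at 1.13, 1.30, 1.37 and 1.32 on replicates 1 to 4, close together and with an SD of 0.10. It was the steadiest of the Y complex under the scaling used here and did not pass the test between arrays (limma adjusted p = 0.633). After normexp correction Nup37 had a smaller SD than Nup85, 0.09 against 0.11. Nup43 was at −3.44, −4.06, −3.16 and −3.10, low on replicate 2, with an SD of 0.44. After normexp correction it was lowest on replicate 1 and highest on replicate 3, with a fold of 1.54. Nup37 was at −3.10, −3.65, −3.71 and −3.48, high on replicate 1, with an SD of 0.27; its other probe, designed on a predicted transcript, was not detected on any array. Nup107 was at −3.78 on replicate 2, where its 1 spot was well above background at 42.6 intensity units, and at −7.34, −6.43 and −7.47 on replicates 1, 3 and 4, where it was not. Nup160 had 2 probes that disagreed. The first was detected on replicates 1 and 4, at −4.91 and −4.53, and the second on replicate 3 alone, at −4.97.

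All 4 measured genes of the inner ring were detected on all 4 arrays. Nup93, the adaptor that ties the inner ring together, was at −0.85, −0.84, −0.83 and −0.94. Its SD, 0.05, was the smallest of the detected members under the scaling used here. After normexp correction Nup214 had a smaller one, 0.025 against 0.045, and under quantile normalization Xpo6 did, 0.037 against 0.048. Nup205, a large scaffold protein that binds Nup93, was at −0.97, −1.64, −1.41 and −1.17, with replicate 1 high and replicate 2 low. Its arrays differed 1.59-fold at most (limma adjusted p = 0.00370), and it did not pass after normexp correction (limma adjusted p = 0.192). Nup155 was at −3.37 ± 0.25 and Nup35, which bends and binds the pore membrane, at −1.96 ± 0.20 (SD, n = 4).

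Of the 4 measured members of the membrane ring, 2 were detected on all 4 arrays. Nup210, a membrane-spanning protein, was at 0.03, −0.14, −0.39 and 0.15 on replicates 1 to 4, low on replicate 3, with an SD of 0.24. Aaas, which encodes ALADIN, a protein held at the pore by the Ndc1 product, was at −1.94, −1.98, −2.21 and −2.09, with an SD of 0.12. Ndc1 itself was at −4.53, −5.14, −5.03 and −4.92, and not well above background on replicate 2, where it was at 3.03 times the 99th percentile of negative control spots. Nup210l, a relative of Nup210, was not well above background on any array with either probe, though 1 probe on replicate 2 reached 2.80 times that percentile.

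The channel and its cytoplasmic face followed. Nup62, the FG nucleoporin of the central channel, was read at 8 to 10 spots per array and lay at 1.47, 1.42, 1.17 and 1.35 on replicates 1 to 4. Replicate 3 was low by a small margin, 1.23-fold between the extremes (limma adjusted p = 2.63e-07, and 0.0689 without replicate 3). Nup98, an FG protein found on both faces of the pore, was at −1.20, −1.45, −1.29 and −1.50 with its brightest probe, while its 2 other probes were not detected on any array. Nup58 and Nup54, the partners of Nup62 in the channel complex, were dim: Nup58 was at −5.50, −5.74, −4.82 and −5.07 and Nup54 at −5.78, −5.74, −6.41 and −7.87. On the cytoplasmic side all 4 measured members were detected on all 4 arrays. Rae1, an mRNA export factor that binds Nup98, was at 0.61, 0.75, 0.59 and 0.64, with an SD of 0.07 and an adjusted p of 0.172 between arrays (limma; 0.0250 with the median of detected probes as reference and 0.00857 with the 75th percentile of all probes). Nup88 was at −3.58, −4.33, −4.00 and −3.77, high on replicate 1 and low on replicate 2, with an SD of 0.32. After normexp correction its lowest array was replicate 1, its highest replicate 4, and the fold between arrays 1.14. Its partner Nup214 was at −2.97 ± 0.12 by its brighter probe, highest on replicate 1, and at −3.20 ± 0.21 by the other, highest on replicate 2. Nup42, a cytoplasmic filament protein of mRNA export, was at −1.78 ± 0.20 (SD, n = 4).

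Ran and its GTPase-activating protein were detected on all 4 arrays. Ran was read at 8 to 10 spots per array and lay at 3.21, 3.28, 3.62 and 3.63 on replicates 1 to 4. Replicates 3 and 4 were high and replicates 1 and 2 low, and the SD of the spots within an array ran from 0.08 to 0.14. The extremes differed 1.34-fold (limma adjusted p = 3.25e-11). A second probe of Ran, on a predicted transcript, was at −1.48, −1.60, −1.32 and −1.22, again higher on replicates 3 and 4. Rat has several pseudogenes of Ran, and whether they share signal with these probes was not tested. Rangap1, whose product drives hydrolysis of GTP on Ran at the cytoplasmic side, was at −1.66, −1.87, −1.89 and −1.95, with an SD of 0.13. Its 2 probes were both highest on replicate 1.

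Among the importin alpha genes, whose products are adaptors that bind the classical nuclear localisation signal, 2 of 6 were detected on all 4 arrays. Kpna2, a form prominent in dividing cells, was at 2.28, 1.89, 2.20 and 2.28 on replicates 1 to 4 over 10 spots per array. Replicate 2 was low, 1.31-fold below replicate 1 (limma adjusted p = 2.30e-13; without replicate 2 the arrays differed 1.07-fold at most, adjusted p = 0.0162), with spots on replicate 2 between 1.79 and 2.02 and spots on replicate 1 between 2.15 and 2.45. Whether Kpna2l1 shares signal with the Kpna2 probe was not tested. Kpna6 was at −3.58, −3.31, −3.30 and −3.44, with an SD of 0.13. Kpna3 was well above background on replicate 1 alone, at −6.22 by 1 of its 2 probes, and Kpna1, Kpna4 and Kpna5 on no array. By a looser rule, brighter than 99% of negative control spots, Kpna4 was detected on all 4 arrays, and so were Ndc1, Nup58 and Nup153.

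Of 5 measured receptors of the importin beta family, 4 were detected on all 4 arrays. Kpnb1, the carrier that pairs with importin alpha, was at −4.16, −3.89, −3.96 and −3.45, high on replicate 4 and low on replicate 1, with an SD of 0.30. After normexp correction it was highest on replicate 2 and still lowest on replicate 1. Ipo7 encodes a receptor that imports ribosomal proteins and histone H1. It was at −3.27, −4.30, −4.87 and −4.26, with replicate 1 high and replicate 3 low, and intensities of 149, 29.7, 26.3 and 43.4 units. Its level was −4.17 ± 0.67 (SD, n = 4) and the extremes differed 3.03-fold. The probe had 1 spot, so no test between arrays was possible for it. Whether the pseudogenes of Ipo7 share signal with this probe was not tested. After normexp correction the fold was 1.26 and the highest array replicate 2. Ipo4 was at 1.23, 1.23, 0.89 and 0.99, with an SD of 0.17. Ipo13, a receptor that moves cargo in both directions, was at −1.02, −0.75, −0.93 and −1.08, with an SD of 0.15.

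All 4 measured exportins were detected on all 4 arrays. Xpo1 encodes CRM1, the receptor of the leucine-rich nuclear export signal. Its level was −3.22, −4.23, −3.97 and −3.60 on replicates 1 to 4, high on replicate 1 and low on replicate 2, with an SD of 0.44 and a 2.01-fold difference between the extremes. After normexp correction that fold was 1.12 and the highest array replicate 4. Xpo6, the exporter of actin, was at −2.99, −3.20, −3.04 and −3.05, with the smallest SD of the exportins, 0.09. After normexp correction the SD of Xpo6, 0.23, was the largest of the exportins. Xpo5, which exports precursors of microRNAs, was at −1.60, −1.76, −1.95 and −1.52, and Xpo7 was at −1.90, −2.29, −1.93 and −1.78 by its detected probe. The other Xpo7 probe was not detected on any array. Nxf1, the bulk mRNA export receptor, was at −1.49, −1.46, −1.77 and −1.83, with replicates 1 and 2 above replicates 3 and 4 by up to 1.30-fold (limma adjusted p = 0.0267, 0.0894 without replicate 4 and 0.285 after normexp correction).

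The differences between arrays were then compared with the scatter between spots of a probe, for the probes printed at 2 or more spots. Of 871 named genes in that fit, 84.6% passed an adjusted p of 0.05 with no fold minimum, and 4.25% also had at least a 2-fold difference between the highest and the lowest array. Of 8 members in it, 6 passed without the fold minimum, Tpr, Nup205, Nup62, Nxf1, Ran and Kpna2, and 1 with it, Tpr. The spread of Tpr was known when the members were chosen, so its call is a description and no result about the members. The count of 6 lies near the background share. With the fold minimum no member passed without replicate 1 or after normexp correction (by adjusted p alone 6 and 4 did). These tests concern arrays, since the spots share the RNA of 1 culture, and the 21 other detected members had probes of 1 spot.

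**Figure D3:**
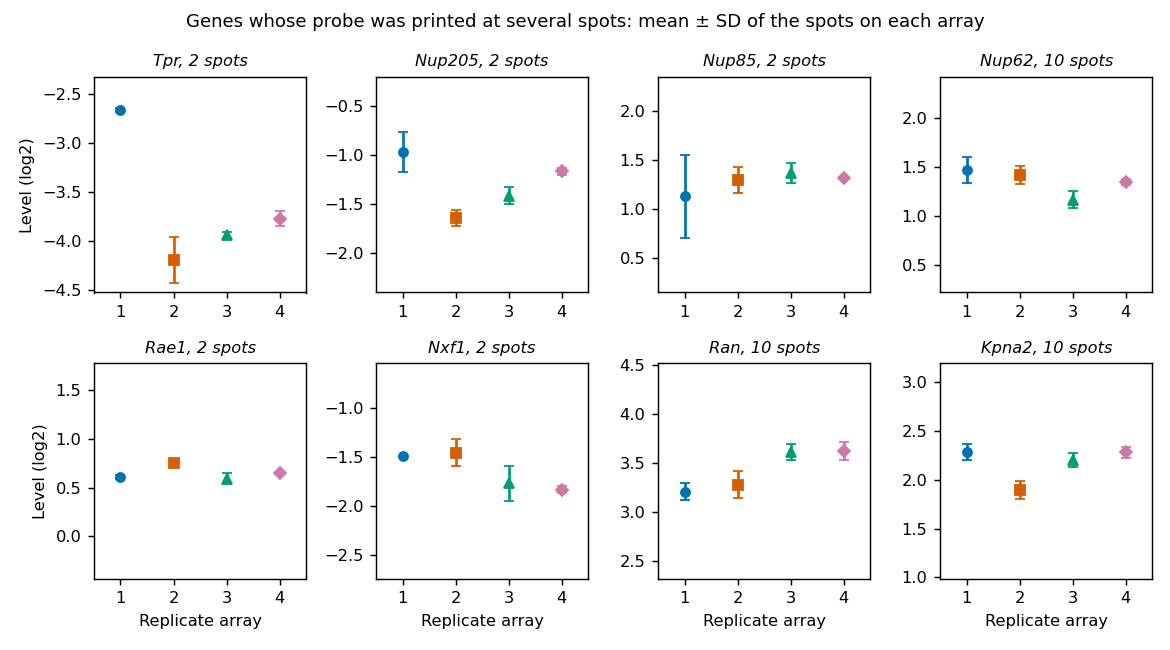
Level (log2 signal relative to the array's reference) on each replicate array for the 8 members whose probe was printed at 2 or 10 spots, as mean ± SD of the spots on that array; each panel spans the same log2 range. The Tpr spots of replicate 1 sit at −2.66, apart from the other 3 arrays, while the means of Rae1 and Nup85 span 0.16 and 0.24.

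How many members were highest or lowest on an array depended on the scaling. With the scaling used here, 14 of the 29 were highest on replicate 1 and 12 lowest on replicate 2, against 37.8% and 32.2% of all detected genes, and among 30 other detected genes of the pathway 15 were highest on replicate 1 and 9 lowest on replicate 2. The members' mean deviation from their own means was 0.15, −0.13, −0.06 and 0.04 on replicates 1 to 4, and the median 0.12, −0.13, −0.04 and 0.01. On replicate 1 Tpr, Ipo7 and Xpo1 lay farthest above their own means, and Tpr was chosen with its spread known. The mean deviation was 0.10, −0.12, 0.03 and −0.01 over the other pathway genes and 0.05, −0.03, −0.01 and −0.01 over all detected genes. The members' highest and lowest arrays thus lay 0.29 apart, and 0.18 apart without replicate 1. With the 75th percentile of all probes as reference, replicate 4 was highest at 0.08 and replicate 3 lowest at −0.09. The members highest on replicates 1, 2 and 4 were then 9 each, against 1389, 2349 and 1221 of 5830 detected genes. After normexp correction the arrays lay 0.028 apart. Then 8 members were highest on replicate 1 and 9 on replicate 2, against 1193 and 2629 of the 5830 genes. The members lowest on replicate 2 were 6 and on replicate 1 were 8, against 1050 and 2734. Under quantile normalization 12 were highest on replicate 1 and 13 lowest on replicate 2, and with the median of detected probes as reference 10 and 12. Tpr was highest on replicate 1 under all 5 settings. Signal strength moved with the deviations under the scaling used here, as replicate 1 was the brightest array and replicate 2 the dimmest, and its part in them was not tested. For 16 detected genes of proliferation the mean deviation under that scaling was 0.26, −0.24, −0.04 and 0.03, and the median 0.18, −0.26, −0.05 and 0.06. Of these, 10 were highest on replicate 1 and 8 lowest on replicate 2, with Mki67, Ccnb1 and Cdk1 in both counts. The other way, 3 were lowest on replicate 1, namely Pcna, Birc5 and Mcm7. The part of proliferation was not tested.

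**Figure D4:**
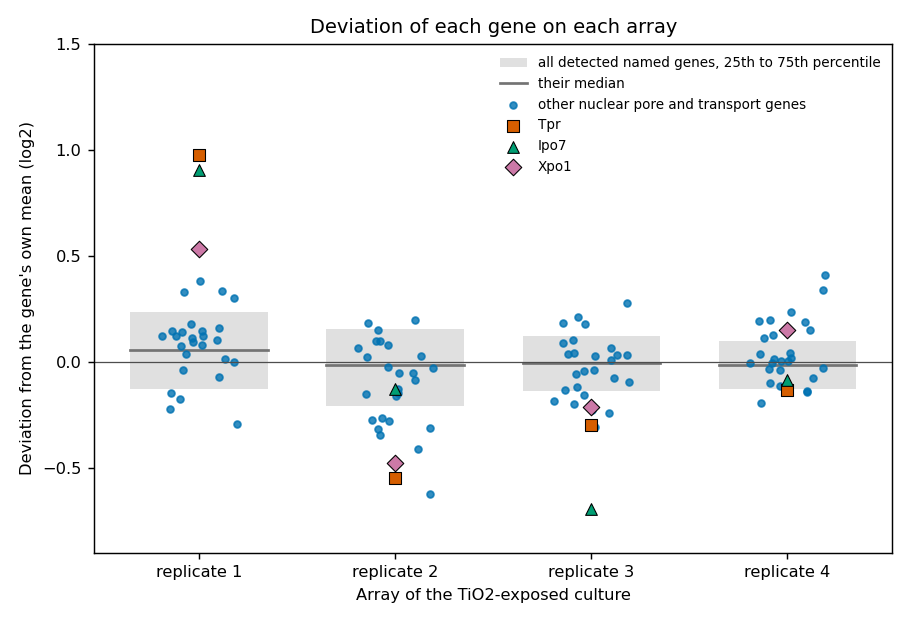
Deviation of each gene from its own mean over the arrays (log2) on each of the 4 arrays; points are the 29 detected nuclear pore and transport genes, grey bars span the 25th to 75th percentile of 5830 detected named genes and the grey line is their median. Tpr, Ipo7 and Xpo1 lie above the bar on replicate 1, and Tpr and Xpo1 below it on replicate 2.

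Among the 29 members detected on all 4 arrays, 3 differed at least 2-fold between replicates 1 and 2, Tpr, Ipo7 and Xpo1, against 332 of 5830 detected genes, and between replicates 3 and 4 none did, against 21 genes. The promoters of these 3 genes are shown because they were the ones with a 2-fold difference among those 29. That of Ran is shown because it was lowest on replicate 1 under the scaling used here, as were Nup85, Kpna6 and Kpnb1. After normexp correction and under quantile normalization Ran was lowest on replicate 2, and so was its second probe under the scaling used here. These promoters were picked after the values were seen. They run from 250 bases before to 50 after the gene start, from RefSeq on GRCr8: Tpr at chr13:64974169-64974468 (plus strand), Ipo7 at chr1:173497222-173497521 (plus), Xpo1 at chr14:101434200-101434499 (plus) and Ran at chr12:33314241-33314540 (minus). Capitals mark matches to the motifs named after them.
Tpr: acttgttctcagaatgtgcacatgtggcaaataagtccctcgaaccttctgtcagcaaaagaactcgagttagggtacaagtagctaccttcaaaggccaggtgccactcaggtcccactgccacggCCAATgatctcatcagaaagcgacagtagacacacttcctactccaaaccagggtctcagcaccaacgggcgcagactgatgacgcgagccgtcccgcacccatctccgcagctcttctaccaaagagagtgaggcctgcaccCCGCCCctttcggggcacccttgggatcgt
Ipo7: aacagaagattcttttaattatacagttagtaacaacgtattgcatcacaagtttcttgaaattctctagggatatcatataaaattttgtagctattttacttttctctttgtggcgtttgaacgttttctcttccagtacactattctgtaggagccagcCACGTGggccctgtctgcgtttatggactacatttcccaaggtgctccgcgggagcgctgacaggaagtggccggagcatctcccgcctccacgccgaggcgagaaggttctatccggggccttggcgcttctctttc
Xpo1: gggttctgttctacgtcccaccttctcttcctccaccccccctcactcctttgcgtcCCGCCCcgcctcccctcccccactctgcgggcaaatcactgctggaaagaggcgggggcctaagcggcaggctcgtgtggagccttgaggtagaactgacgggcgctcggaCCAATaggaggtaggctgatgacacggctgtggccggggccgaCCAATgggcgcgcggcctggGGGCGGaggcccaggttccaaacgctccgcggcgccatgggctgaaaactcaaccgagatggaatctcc
Ran: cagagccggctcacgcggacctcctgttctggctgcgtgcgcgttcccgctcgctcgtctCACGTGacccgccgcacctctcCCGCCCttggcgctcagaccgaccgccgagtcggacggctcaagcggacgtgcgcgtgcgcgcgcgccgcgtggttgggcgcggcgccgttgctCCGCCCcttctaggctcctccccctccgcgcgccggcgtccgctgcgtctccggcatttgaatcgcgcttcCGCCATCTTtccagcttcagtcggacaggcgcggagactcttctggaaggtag
The motifs searched on both strands were the CCAAT box (CCAAT), the GC box (GGGCGG), the E-box (CACGTG), the NRF1 core, 2 forms of the E2F site (TTTGGCGC and TTTCGCGC), the ETS site (CCGGAAG), the CRE (TGACGTCA) and the YY1 site (AAGATGGCG). Tpr held a CCAAT box and a GC box, Xpo1 held 2 of each, Ipo7 held an E-box, and Ran held 2 GC boxes, an E-box and a YY1 site, so no motif was found in all of Tpr, Ipo7 and Xpo1. Of 36 members with a promoter in the table, 24 held a GC box, 17 a CCAAT box, 5 an E-box and 4 a YY1 site, against 43.1%, 38.4%, 7.27% and 2.29% of 19005 protein-coding promoters of the same length. For the rest, 6 held an ETS site, 2 a CRE, 2 an NRF1 core and 1 and 2 the E2F forms, against 11.2%, 2.22%, 1.14%, 0.652% and 0.468%. The members' promoters had a median GC content of 63% and 24 CpG dinucleotides each, against 55.3% and 12 over all; the part of base composition in the counts of matches was not tested. A match is a description of letters and no evidence of binding.

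Other genes of the pathway were detected to a like extent. The 40 measured genes were for nucleoporins outside the name rule, Ran regulation, other import receptors, mRNA export, SUMO and the nuclear lamina. Of these, 30 gave signal on every array, 7 on a part of the arrays and 3, Eny2, Senp2 and Thoc2, on none. Their median SD was 0.19. Of 5 in the limma test between arrays, 3 passed without a fold minimum, Lmna, Nxt1 and Zc3h11a, and none had a 2-fold difference. An SD above 0.5 was found for 2 of the 30. Ranbp1, whose product helps release Ran from its carriers, was at −0.39, −1.95, 0.11 and −0.01, low on replicate 2, with an SD of 0.95. Lmnb1, a lamin of the nuclear envelope, was at −2.97, −3.85, −3.19 and −4.18, with an SD of 0.56. Cse1l, which returns importin alpha to the cytoplasm, was at −1.82 ± 0.28 and the nucleotide exchange factor gene Rcc1 at −4.49 ± 0.25. Of the nucleoporins in this list, Pom121, Ahctf1 and Sec13 were detected on all 4 arrays, at mean levels of −1.79, −3.86 and −0.12. Ranbp2, the largest protein of the cytoplasmic filaments, was well above background on 3 arrays, at −4.04, −4.97, −5.11 and −5.14, with replicate 1 high.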

How the data were processed

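Gene expression was measured in 4 exposed cultures, 1 group in the labels, which call them biological replicates. Per the labels' protocols, RNA had to reach a RIN of more than 7.5, and 100 ng went into Cy3 labelling for Agilent arrays of 1 colour. The deposited files hold spot intensity, made with Agilent Feature Extraction 11.0.1.1 per the submitters' processing notes: its processed signal had background subtracted and spatial trends removed on each array, with no normalization across arrays per the file headers. Flags for signal well above background come from the same software. All 4 arrays lay on 1 slide.

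Control spots and outlier-flagged spots (486 to 723 gene spots per array) were left out, the latter kept for detection, and saturation was not found. Log2 intensity was averaged over the spots of a probe and set against the array's 75th percentile among the probes that all 4 arrays detected (22.9% of probes). Detection of a probe needed the flag at more than 50% of its spots, and detection of a gene needed 1 such probe. Levels are those of the probe with the highest mean. Accessions without version were matched to a RefSeq gene table (GRCr8): 21109 of 45598 probes (46.3%) had a name. Precision is limited by the 4 arrays.

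Arrays were compared by the moderated F of limma 3.58.1 (R 4.3.3; eBayes after lmFit, Benjamini-Hochberg adjustment) over 1594 detected probes with 2 or more spots, taking spots as replicates of an array; the code was tested on simulated data. With 1 group, p-values say nothing of a treatment. Other steps used matplotlib 3.10.9, pandas 2.3.3, numpy 2.4.6 and Python 3.11.15.

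Members and lists were chosen with earlier results of these data known. Every member is accounted for by role. Values on each array are given for Tpr, for members past the test with 2-fold and, per role, for those with the highest and lowest SD and the highest level; others given on each array were added after seeing the values. Alternatives were other scalings, normexp correction with an offset of 50 on median spot and background signal, the mean over probes, other detection rules, keeping dim probes, other fold minima, and each replicate left out. A planned look at protein sequences was not made.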

Additional observations from a re-analysis of the deposited data

How the results depend on the processing

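No paired analysis was possible because the labels hold 1 group. The count of 29 members detected on all 4 arrays was 33 by the 99th percentile of negative controls (Kpna4, Ndc1, Nup58 and Nup153 gained), 26 when all probes of a gene had to pass (Nup37, Nup98 and Xpo7 lost), and 29 to 33 with a replicate left out. The median SD of detected members, 0.19, ran from 0.14 to 0.25 over other settings and from 0.17 to 0.20 with a replicate left out. The SD of Tpr, 0.67, was 0.27 after normexp correction and ran from 0.21 without replicate 1 to 0.83 without replicate 4; it was 0.60 to 0.62 under the other scalings. The count of members called with a 2-fold minimum, 1, was 0 after normexp correction, 6 with no fold minimum, 2 with a minimum of 1.5, and ran from 0 without replicate 1 to 1. Calls by adjusted p alone, 6, were 4 to 7 over the other settings and 5 to 6 with a replicate left out. The difference between the highest and lowest array in the members' mean deviation, 0.29, was 0.16 with the median of detected probes as reference, 0.16 with the 75th percentile of all probes, 0.028 after normexp correction and 0.15 without the filter on dim probes, and ran from 0.18 without replicate 1 to 0.30 without replicate 4. The cause was not tested. After normexp correction 17 of 29 members had a lower SD, 14 of them by over 1.5 times, and 2 had an SD higher by over 1.5 times. That setting changed both the offset and the input signal, so their parts cannot be told apart. Levels shifted with the reference by 2.05 with the median of detected probes and 5.17 with all probes, for all genes alike in the median. Ndc1, Nup58 and Nup153 were missed on the dimmest array by the software's flag alone.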
